A study of Danio rerio with 48 samples.

Results

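Box H/ACA and box C/D small nucleolar ribonucleoproteins (snoRNPs) and the abundant proteins of the nucleolus were followed in single zebrafish embryos that were homozygous mutant or homozygous wild type for noc2l. The 10 genes were taken by name: dkc1, gar1, nop10 and nhp2 of the H/ACA particle, fbl, nop56 and nop58 of the C/D particle, and the nucleolar proteins npm1a, ncl and nolc1. All 10 were present among 31658 entries of the count table, and all 10 passed the filter on low counts that left 16431 genes for testing. The smallest count of any of the 10 in any library was 50.

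The groups were noc2l -/- embryos (mutants) at 24 hours post fertilisation (hpf, n = 9), 36 hpf (n = 9) and 48 hpf (n = 7), and noc2l +/+ embryos (wild types) at 24 hpf (n = 6), 36 hpf (n = 8) and 48 hpf (n = 9). All came from the RIKEN WT (RW) strain and from 1 family, titled agu79_Family232, so p-values concern embryos of that family, and the sources used here do not give the lesion of the allele. Each library held the RNA of 1 whole embryo, read at the 3′ ends of its polyadenylated transcripts by Lasy-Seq, a method that tags each RNA at reverse transcription and then pools the samples. Total counts ran from 797752 to 11016313 per library, and 3 libraries held no more than 1984847 counts (at 24 hpf embryo 8 of the mutants and embryo 4 of the wild types, and at 48 hpf embryo 9 of the wild types). Levels are CPM, counts scaled to library size with TMM factors. They do not scale with transcript length, and genes are set beside each other only as shares of summed counts. In such bulk libraries, fewer cells of a type and less RNA per cell cannot be told apart.

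The nucleolus is where ribosomal RNA is transcribed, modified, cut and joined to ribosomal proteins. SnoRNPs guide most of its chemical modifications: H/ACA particles convert chosen uridines to pseudouridine, and C/D particles add methyl groups to chosen riboses, each directed by the guide RNA in the particle. Growing and dividing embryonic cells make ribosomes at a high rate, and Noc2l is the counterpart of yeast Noc2, a nucleolar protein that takes part in making the large ribosomal subunit. The roles given below for other genes are known from yeast and mammals.

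The transcript of noc2l averaged 5.74, 5.42 and 4.23 CPM in mutants at 24, 36 and 48 hpf, against 20.1, 15.5 and 13.5 CPM in wild types. The log2 differences were -1.93, -1.52 and -1.72, each past the threshold (edgeR's quasi-likelihood test with Benjamini-Hochberg adjustment over all tested genes, adjusted p = 0.00108, 0.00242 and 0.000687), although single embryos of the genotypes overlapped at each age. By a name match to another assembly, noc2l lies on chromosome 23 and none of the 10 genes does.

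Of the 10 transcripts of snoRNP and nucleolar proteins, 8 rose past the threshold in noc2l mutants at 48 hpf, or 4 once a developmental age score was added to the fit. At 24 hpf 0 of 10 passed, at 36 hpf 5 of 10 did (dkc1, gar1, nhp2, fbl and npm1a), and at 48 hpf all but nop10 and nhp2 did. Every one of the 30 fitted differences was above 0. The median log2 difference over the 10 genes was 0.32 at 24 hpf, 0.39 at 36 hpf and 0.54 at 48 hpf, where the medians over all tested genes were 0.02, -0.01 and -0.02. Among all tested genes, the share called higher in mutants was 0.11% at 24 hpf, 0.615% at 36 hpf and 1.49% at 48 hpf. The 10 genes were chosen with earlier results of these data known, so counts beside these shares are a description and no separate test.

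The count of 0 at 24 hpf is by edgeR at an adjusted p of 0.05. DESeq2 and limma voom also called 0 of 10 there, and 0.189% and 0.0426% of all tested genes higher, while 8 of 10 had an unadjusted p under 0.05, against 4.81% of all tested genes higher in mutants by that rule. All 10 did at 36 hpf and at 48 hpf, where the shares over all genes were 4.41% and 6.24%. Leaving out any 1 of the 48 libraries kept 8 or 9 calls at 48 hpf, and none of the 8 called genes lost its call in these fits.

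**Figure D1:**
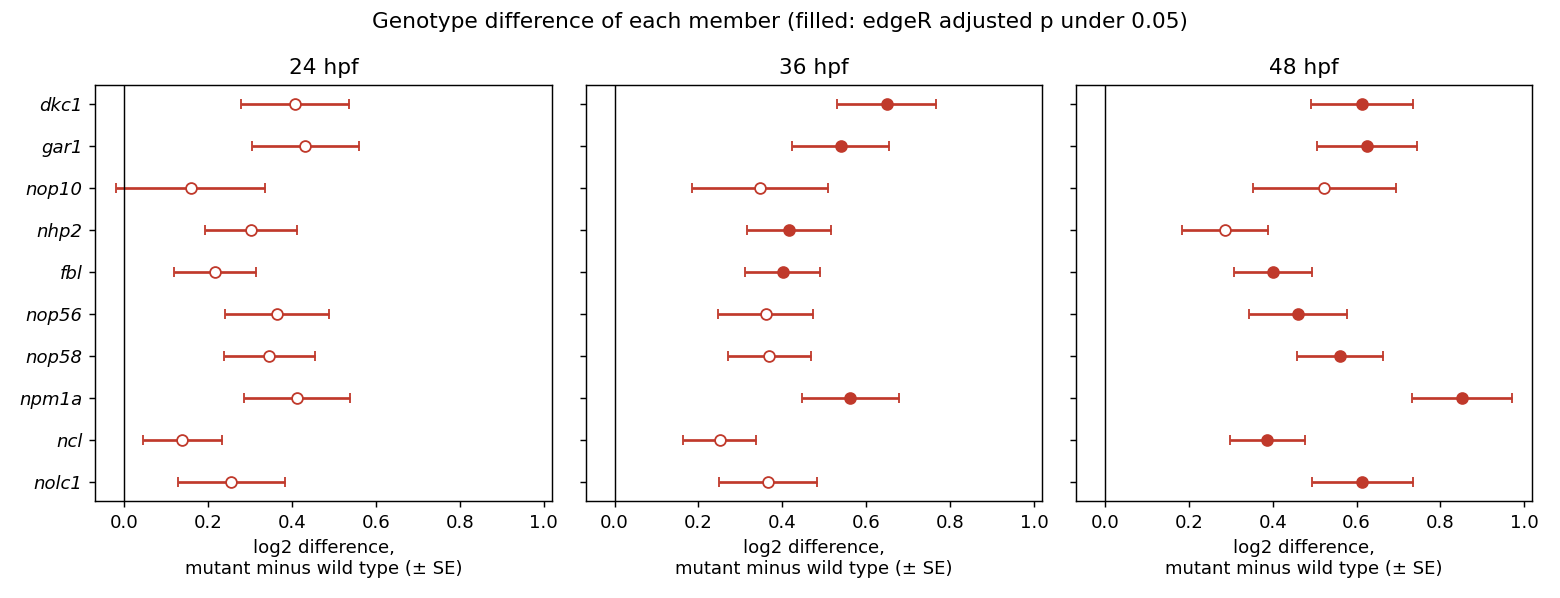
Fitted log2 difference of mutants minus wild types for each of the 10 genes (points, with SE bars) at 24, 36 and 48 hpf, with filled points for an edgeR adjusted p under 0.05. All 30 points lie to the right of 0, and 0, 5 and 8 of them are filled at the 3 ages.

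Of the H/ACA proteins, dkc1 encodes dyskerin, the pseudouridine synthase of the particle. At 24 hpf it ranged over 119 to 201 CPM (median 161) in mutants and 86.1 to 162 CPM (median 114) in wild types. The groups overlapped, with 4 of 9 mutants above every wild type, and the log2 difference of 0.41 ± 0.13 (SE) did not pass the threshold (edgeR adjusted p = 0.298). At 36 hpf dkc1 ranged over 82.7 to 162 CPM (median 109) in mutants and 53.7 to 108 CPM (median 68.8) in wild types, a log2 difference of 0.65 ± 0.12 (edgeR adjusted p = 0.000369). At 48 hpf every mutant was above every wild type, at 77.6 to 102 CPM (median 90.9) in mutants and 46.1 to 71.5 CPM (median 58.9) in wild types. The log2 difference was 0.61 ± 0.12 (edgeR adjusted p = 0.000677), a rise to 1.53 times the wild-type level.

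Gar1 binds dyskerin in the mature particle. In 24 hpf embryos gar1 held 97.9 to 158 CPM (median 129) in mutants and 81.4 to 126 CPM (median 94.9) in wild types, with a log2 difference of 0.43 ± 0.13 (edgeR adjusted p = 0.213). The 36 hpf embryos had 76.4 to 130.4 CPM (median 104) in mutants and 54.2 to 95.4 CPM (median 67.7) in wild types, and 6 of 9 mutants exceeded every wild type. The 48 hpf embryos had 60.1 to 96.7 CPM (median 88.4) in mutants and 40.7 to 66.6 CPM (median 53.7) in wild types, and 6 of 7 mutants exceeded every wild type. Gar1 thus rose past the threshold at both later ages, with log2 differences of 0.54 ± 0.12 at 36 hpf and 0.63 ± 0.12 at 48 hpf (edgeR adjusted p = 0.00441 and 0.00039).

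Nop10 and Nhp2, the small structural subunits of the H/ACA particle, were the members that did not pass at 48 hpf. At 48 hpf nop10 ranged over 44.6 to 95.1 CPM (median 67.3) in mutants and 31.05 to 68.8 CPM (median 53.2) in wild types. The log2 difference of 0.52 ± 0.17 was close to that of the called genes, but nop10 varied most within groups (SD 0.353 on the log2 scale, against 0.163 for ncl, the least variable of the 10), and its edgeR adjusted p was 0.106. It passed when wild-type embryo 8, the highest of its group, or mutant embryo 6, the lowest of its group, was left out at that age (log2 difference 0.61 and 0.63, edgeR adjusted p = 0.0485 and 0.0314). Its earlier log2 differences were 0.16 ± 0.18 at 24 hpf and 0.35 ± 0.16 at 36 hpf (edgeR adjusted p = 0.886 and 0.615).

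Nhp2 was called at 36 hpf and not at 48 hpf. At 36 hpf nhp2 ranged over 89.8 to 135 CPM (median 115) in mutants and 72.5 to 104 CPM (median 82.4) in wild types, with 8 of 9 mutants above every wild type. The log2 difference was 0.42 ± 0.10 (edgeR adjusted p = 0.0171), and the call was lost without wild-type embryo 5 or mutant embryo 6 of that age (edgeR adjusted p = 0.0637 and 0.0589). At 48 hpf nhp2 ranged over 76.8 to 118 CPM (median 100.4) in mutants and 70.3 to 104 CPM (median 76.4) in wild types. Only 3 of 7 mutants exceeded every wild type, and the log2 difference was 0.29 ± 0.10 (edgeR adjusted p = 0.162). At 24 hpf 7 of 9 mutants exceeded every wild type, with 135 to 223 CPM (median 149) in mutants and 113 to 138 CPM (median 133) in wild types and a log2 difference of 0.30 ± 0.11 (edgeR adjusted p = 0.413).

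Of the C/D proteins, fbl encodes fibrillarin, the methyltransferase of the particle. At 24 hpf fbl ranged over 260.1 to 405 CPM (median 333) in mutants and 228 to 329 CPM (median 281) in wild types, a log2 difference of 0.22 ± 0.10 (edgeR adjusted p = 0.57). In 36 hpf embryos fbl ranged over 177 to 270.1 CPM (median 228) in mutants and 150.1 to 201 CPM (median 169) in wild types, and 7 of 9 mutants exceeded every wild type. At 48 hpf the groups no longer overlapped, with 161 to 225 CPM (median 175) in mutants and 115 to 159 CPM (median 139.8) in wild types. The log2 difference was 0.40 ± 0.09 at 36 hpf and 0.40 ± 0.09 at 48 hpf, both past the threshold (edgeR adjusted p = 0.00748 and 0.00493).

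Nop56 and Nop58 form the paired scaffold that holds fibrillarin on the guide RNA, and both rose past the threshold at 48 hpf alone. At 48 hpf nop56 ranged over 80.7 to 98.1 CPM (median 90.4) in mutants and 35.8 to 79.9 CPM (median 67.2) in wild types. Nop58 ranged over 82.9 to 114 CPM (median 101) in mutants and 51.7 to 77.7 CPM (median 73.4) in wild types at that age. For both genes every mutant lay above every wild type. The log2 differences were 0.46 ± 0.12 for nop56 and 0.56 ± 0.10 for nop58 (edgeR adjusted p = 0.014 and 0.000179).

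At 36 hpf nop56 ranged over 76.4 to 131 CPM (median 112) in mutants and 69.6 to 104 CPM (median 87.5) in wild types, a log2 difference of 0.36 ± 0.11 (edgeR adjusted p = 0.156). Nop58 ranged over 102 to 144 CPM (median 125) in mutants and 79.2 to 125 CPM (median 91.1) in wild types at 36 hpf, and its log2 difference of 0.37 ± 0.10 was just short of the threshold (edgeR adjusted p = 0.0542). DESeq2 and limma voom did call nop58 at 36 hpf (adjusted p = 0.0262 and 0.034), as did 10 of the 48 fits that left out 1 library (edgeR adjusted p between 0.0126 and 0.0476), among them those without mutant embryo 1 or 4 or wild-type embryo 6 or 8 of that age. At 24 hpf the log2 differences were 0.37 ± 0.12 for nop56 and 0.35 ± 0.11 for nop58 (edgeR adjusted p = 0.37 and 0.295). Without wild-type embryo 2 at 24 hpf, which had the highest nop56 and nop58 of its group, nop58 passed there (log2 difference 0.48, edgeR adjusted p = 0.0459).

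Among the nucleolar proteins, npm1a encodes a nucleophosmin, an abundant chaperone of histones and ribosomal proteins, and had the largest genotype difference of the 10 genes at 48 hpf. At 24 hpf it ranged over 362 to 618 CPM (median 489) in mutants and 241 to 529.8 CPM (median 342) in wild types, and the log2 difference was 0.41 ± 0.13 (edgeR adjusted p = 0.28). Without wild-type embryo 1 of that age, the highest of its group, npm1a passed (log2 difference 0.55, edgeR adjusted p = 0.0383). At 36 hpf npm1a ranged over 244 to 359 CPM (median 301) in mutants and 146 to 275 CPM (median 204) in wild types, a log2 difference of 0.56 ± 0.12 (edgeR adjusted p = 0.00287).

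At 48 hpf npm1a ranged over 242 to 378 CPM (median 319) in mutants and 164 to 197 CPM (median 171) in wild types. The lowest mutant lay well above the highest wild type, and the log2 difference was 0.85 ± 0.12 (edgeR adjusted p = 7.77e-07), or 1.80 times the wild-type level. Of the summed counts of the 10 genes, npm1a made up 22.4% ± 2.35 in 48 hpf mutants (SD, n = 7) and 18.2% ± 1.64 in 48 hpf wild types (SD, n = 9). The corresponding share of ncl was 21.9% ± 0.983 in mutants and 24.2% ± 1.71 in wild types, and that of nhp2 was 7.30% ± 1.26 in mutants and 8.62% ± 1.07 in wild types. These shares are a description of the mixture and were not tested.

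Ncl encodes nucleolin, an RNA-binding protein of the nucleolus that acts in rRNA transcription and processing. At 48 hpf ncl ranged over 270.2 to 329.7 CPM (median 297) in mutants and 183 to 260.3 CPM (median 233) in wild types, with no overlap. The log2 difference was 0.39 ± 0.09 (edgeR adjusted p = 0.00509). It was 0.14 ± 0.09 at 24 hpf and 0.25 ± 0.09 at 36 hpf, when the groups overlapped and the test was not passed (edgeR adjusted p = 0.764 and 0.276).

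Nolc1 encodes Nopp140, a chaperone that binds both classes of snoRNP. At 48 hpf nolc1 ranged over 41.03 to 56.8 CPM (median 50.02) in mutants and 26.5 to 42.3 CPM (median 31.5) in wild types, and 6 of 7 mutants exceeded every wild type. The log2 difference was 0.61 ± 0.12 (edgeR adjusted p = 0.000584). At 36 hpf it was 0.37 ± 0.12 and at 24 hpf 0.26 ± 0.13, short of the threshold at both ages (edgeR adjusted p = 0.174 and 0.627).

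**Figure D2:**
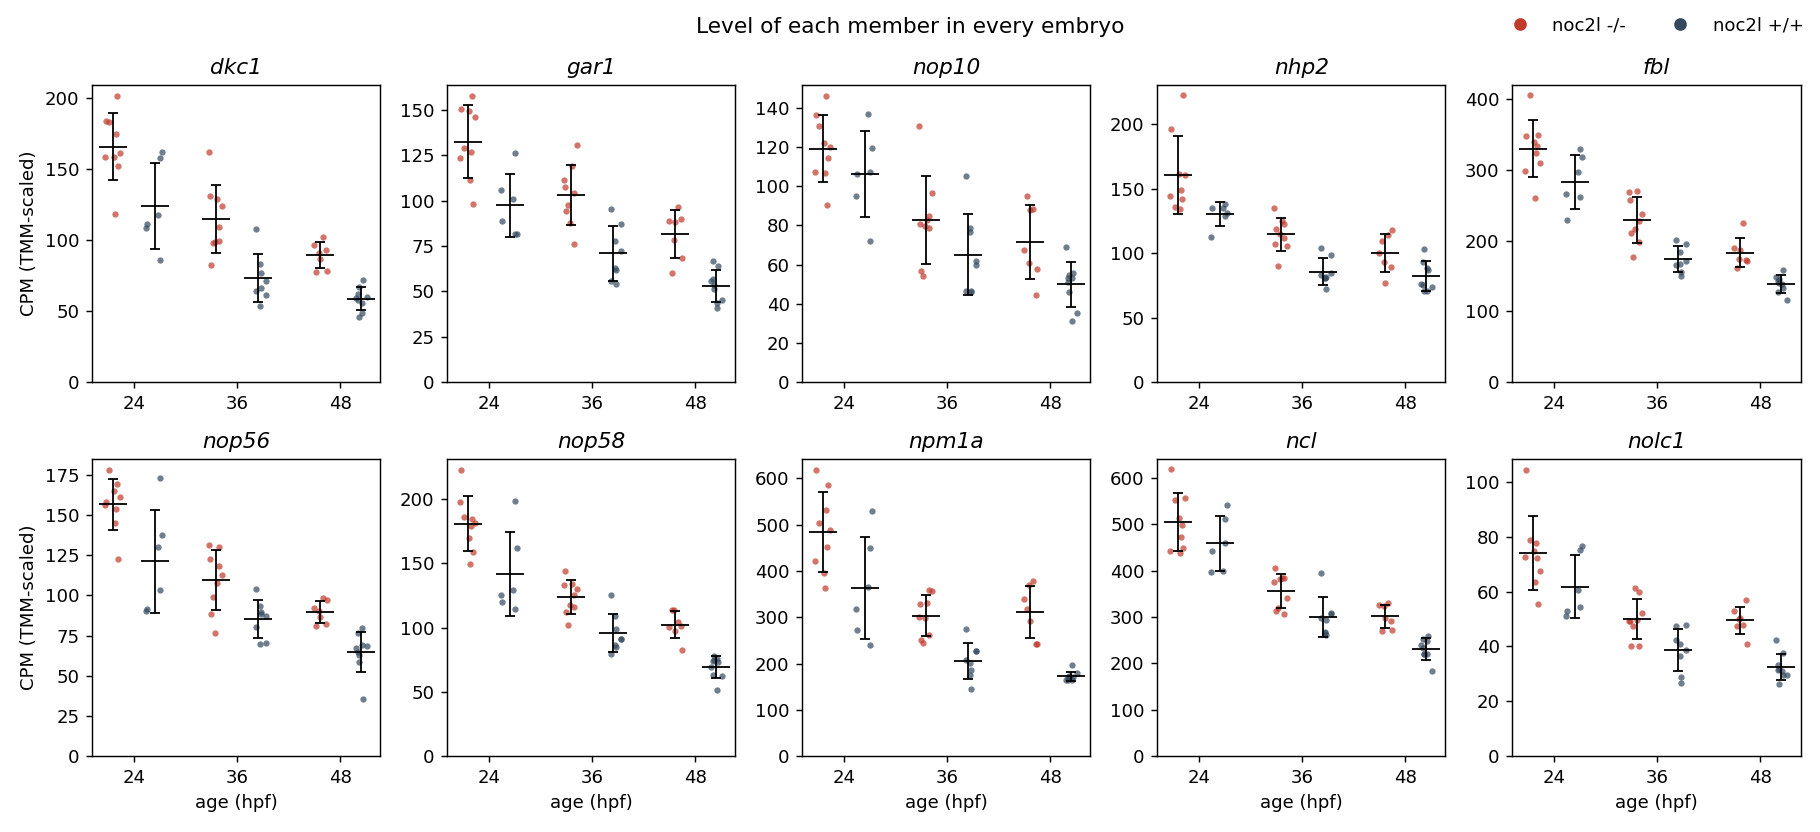
Level of each of the 10 genes in every embryo (points, TMM-scaled CPM) by age in hpf, for noc2l -/- (left of each age) and noc2l +/+ (right of each age), with bars at the group mean ± SD. Levels are lower at 48 hpf than at 24 hpf in both genotypes, while the log2 differences of npm1a and nolc1 between 48 and 36 hpf in mutants are 0.04 and -0.01. At 48 hpf every mutant is above every wild type in dkc1, fbl, nop56, nop58, npm1a and ncl.

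Embryo by embryo, 6 of the 10 genes separated the genotypes completely at 48 hpf (dkc1, fbl, nop56, nop58, npm1a and ncl), where 0.615% of all tested genes had every mutant above every wild type. No gene of the 10 did so at 24 or 36 hpf, where the shares over all genes were 0.0426% and 0.219%. Each of the 7 mutants at 48 hpf had between 8 and 10 of the 10 genes above every wild type of its age. Mutants at 36 hpf had 1 to 9 of the 10 genes above every wild type of their age, and mutants at 24 hpf had 0 to 8. These counts depend on the number of wild types (6, 8 and 9 at 24, 36 and 48 hpf) and on the highest of them. They have no share over all tested genes beside them, so the ages cannot be compared by them. At 48 hpf each count includes the 6 separated genes. The highest wild type at 36 hpf was embryo 8 for every gene of the 10 but nolc1. This embryo also held the highest summed level of the 10 genes in its group, at 1560 CPM, against a group median of 1158 CPM.

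Between 24 and 48 hpf levels fell in both genotypes. In wild types all 10 genes fell from one end of the course to the other: the log2 difference of 48 hpf minus 24 hpf ran from -1.11 ± 0.18 for nop10 to -0.67 ± 0.11 for nhp2, with a median of -1.01. All 10 were called lower, as were 13.5% of all tested genes, and every wild type at 48 hpf lay below every wild type at 24 hpf in all 10, as in 3.24% of all tested genes. In mutants all 10 were called lower as well (13.8% of all tested genes), with log2 differences from -0.89 ± 0.12 for dkc1 to -0.58 ± 0.12 for nolc1. Every mutant at 48 hpf lay below every mutant at 24 hpf in 7 of the 10, as in 3.54% of all tested genes. The ages overlapped in mutants for nop10, npm1a and nolc1. The summed level of the 10 genes had medians of 2308, 1685 and 1350 CPM in mutants at 24, 36 and 48 hpf, and 1772, 1158 and 956 CPM in wild types.

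From 24 to 36 hpf all 10 genes were called lower in each genotype, against 4.97% of all tested genes in mutants and 3.52% in wild types. In wild types the calls of gar1 and nop56 were lost without wild-type embryo 2 at 24 hpf (edgeR adjusted p = 0.101 and 0.076), and in mutants that of gar1 was lost in 7 such fits and that of nop10 without mutant embryo 4 at 36 hpf (edgeR adjusted p between 0.0512 and 0.0628). The 10 calls in mutants became 9 without the shallow libraries, where gar1 was lost, and 8 with no filter on low counts, where gar1 and nop10 were lost (edgeR adjusted p between 0.053 and 0.056). From 36 to 48 hpf 2 of 10 were called lower in mutants (dkc1 and fbl), against 5.26% of all tested genes, and 5 of 10 in wild types (gar1, fbl, nop56, nop58 and ncl), against 7.74%. The count in wild types was 6 without the shallow libraries, where dkc1 was added. With only the libraries compared it was 7, against 8.43% of all tested genes, and dkc1 and npm1a were added (npm1a, edgeR adjusted p = 0.042). No share over all genes is set beside the counts without the shallow libraries or without the filter. The dkc1 call in mutants, at an edgeR adjusted p of 0.0438, was lost in 15 of the 48 fits that left out 1 library (adjusted p between 0.0504 and 0.145), among them those without mutant embryos 3 to 7 at 48 hpf and 2, 3, 6 and 7 at 36 hpf. In wild types dkc1 stood at an edgeR adjusted p of 0.0529 and passed in 28 of these fits. Between these ages npm1a had a log2 difference of 0.04 ± 0.12 in mutants (edgeR adjusted p = 0.915) and -0.25 ± 0.12 in wild types (edgeR adjusted p = 0.154). Nolc1 had -0.01 ± 0.12 in mutants (edgeR adjusted p = 0.975) and -0.26 ± 0.12 in wild types (edgeR adjusted p = 0.15).

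Whether the genotype difference changed with age was tested directly, and no gene of the 10 passed in any pair of ages. Taking the difference at 24 hpf from that at 48 hpf gave log2 values between -0.02 ± 0.15 for nhp2 and 0.44 ± 0.17 for npm1a, the largest, with an edgeR adjusted p of 0.537. By edgeR, 0 of 10 passed for 36 against 24 hpf, 48 against 36 hpf and 48 against 24 hpf, and DESeq2 and limma voom also called 0. At an unadjusted p under 0.05 there were 0, 0 and 2 of the 10, against 5.74%, 4.0% and 7.21% of all tested genes. By adjusted p the shares of all tested genes called in either direction were 0%, 0.0548% and 0.0609%. The rise in calls between 24 and 48 hpf is therefore not shown to be a rise in the difference itself.

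Mutants at 48 hpf were next compared with wild types of 36 hpf, the age before. All 10 fitted differences were above 0, with a median of 0.17, and 2 of 10 were called higher, against 5.75% of all tested genes. Npm1a was higher by a log2 difference of 0.60 ± 0.12 (edgeR adjusted p = 0.000253), and 5 of 7 mutants at 48 hpf exceeded every wild type at 36 hpf. Nolc1 was higher by 0.36 ± 0.12 (edgeR adjusted p = 0.046), with 5 of 7 mutants likewise above every younger wild type. That call was lost in 11 of the 48 fits that left out 1 library, namely wild-type embryos 1, 3, 5, 6 and 7 at 36 hpf and mutant embryos 1 to 6 at 48 hpf (edgeR adjusted p between 0.052 and 0.127).

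The other 8 genes lay closer to the younger wild types, from 0.01 ± 0.09 for ncl to 0.29 ± 0.12 for dkc1, and did not pass. Without wild-type embryo 8 at 36 hpf, which had the highest dkc1 of its group, dkc1 passed (log2 difference 0.39, edgeR adjusted p = 0.0269). These values share the 48 hpf mutants with the comparison at 48 hpf, and the 36 hpf wild types with the age course.

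**Figure D3:**
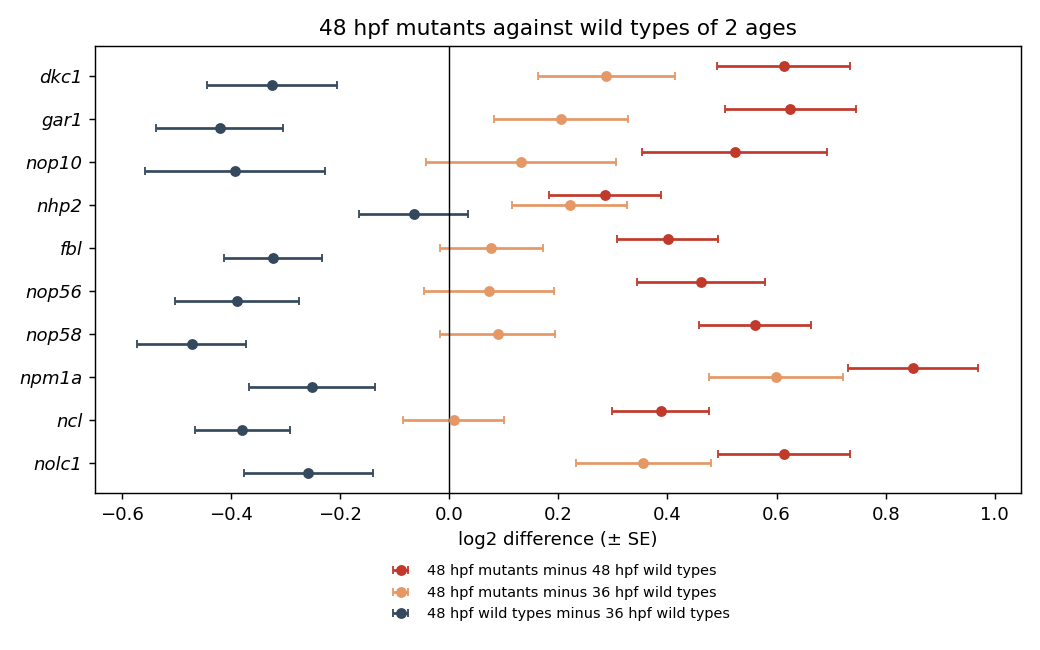
Log2 differences (points, with SE bars) of 48 hpf mutants minus 48 hpf wild types, 48 hpf mutants minus 36 hpf wild types, and 48 hpf wild types minus 36 hpf wild types for each of the 10 genes. In the comparison with 36 hpf wild types, npm1a stands at 0.60 and nolc1 at 0.36, and the other 8 lie between 0.01 and 0.29.

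A developmental age score was read for every embryo, as the average log2 CPM over the 200 genes with the steepest rise with age in wild types. The average over the 200 genes with the steepest fall was subtracted. The 10 genes, the pathway lists below and genes placed on the chromosome of noc2l were kept out. Other genes named below, such as the markers of dividing cells and tissues, could enter the score. At 24, 36 and 48 hpf the score averaged -2.30 ± 0.33, -0.20 ± 0.48 and 1.90 ± 0.38 in mutants (SD), and -1.91 ± 0.34, 0.06 ± 0.44 and 2.59 ± 0.32 in wild types. Mutants thus had a lower mean score at each age, with overlapping ranges. At 48 hpf the overlap came from wild-type embryo 9 alone, a shallow library with a score of 1.868. The next lowest wild type had 2.358, and the highest mutant had 2.355. Score and genotype are therefore hard to tell apart at that age. With the score as a covariate in the edgeR fit, all 10 genes stayed above 0 at each age, with medians of 0.26, 0.36 and 0.45. The calls were 0, 5 and 4 of 10, against 0.146%, 0.621% and 1.3% of all tested genes.

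The 5 genes called at 36 hpf with the score in the fit were dkc1, gar1, nhp2, fbl and npm1a. The 4 at 48 hpf were gar1 (log2 difference 0.54 ± 0.14), nop56 (0.56 ± 0.13), nop58 (0.45 ± 0.11) and npm1a (0.61 ± 0.12). Dkc1 and nolc1, at 0.45 each, were just short of the threshold (edgeR adjusted p = 0.0538 and 0.053). Fbl at 0.25 and ncl at 0.26 did not pass (edgeR adjusted p = 0.206 and 0.166).

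**Figure D4:**
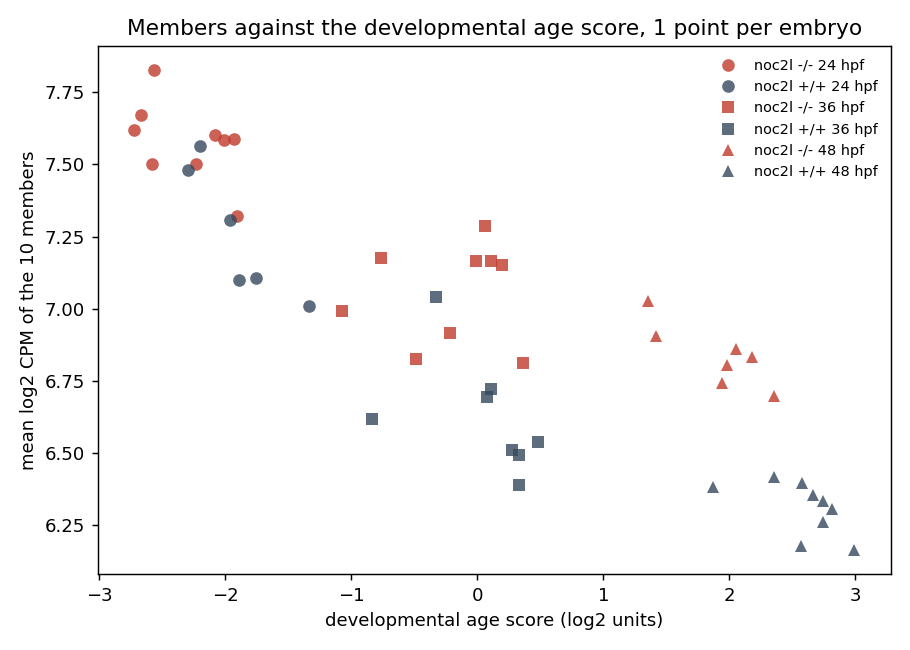
Mean log2 CPM of the 10 genes against the developmental age score (log2 units), 1 point per embryo, with colour for genotype and shape for age. At 48 hpf the 7 mutants lie between 6.70 and 7.03 and the 9 wild types between 6.16 and 6.42.

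The wider pathway was read from 3 lists, chosen like the 10 genes with earlier results of these data known. The first held factors that assemble snoRNPs, belong to them or share their subunits. The second held rRNA modification enzymes outside the snoRNPs and their partners, called modification enzymes below. The third held other nucleolar proteins. For each list, the shares of all tested genes called higher at 24, 36 and 48 hpf were 0.11%, 0.615% and 1.49%. Of 15 genes of the assembly list tested (of 17 listed), 0, 0 and 1 were called higher in mutants at these ages. Their median log2 differences were 0.12, 0.29 and 0.30. By DESeq2 the counts at 24 and 36 hpf were 0 and 1, and by limma voom 0 and 2. At 24, 36 and 48 hpf 4, 6 and 5 genes had an unadjusted p under 0.05. Over all tested genes the shares by that last rule, in either direction, were 7.97%, 7.59% and 11.3% at 24, 36 and 48 hpf. The called gene was rrp9, a protein of the U3 snoRNP, at 20.7 ± 5.94 CPM in mutants and 10.5 ± 1.92 CPM in wild types at 48 hpf (SD), a log2 difference of 0.97 ± 0.17 (edgeR adjusted p = 0.000105). Snu13b, which binds the kink-turn of C/D guide RNAs, was listed here and not with the 10 genes. Its log2 difference at 48 hpf was 0.30 ± 0.10 (edgeR adjusted p = 0.136). Nufip1, a C/D assembly factor, had 0.66 ± 0.24 at that age (edgeR adjusted p = 0.162).

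Of 11 modification enzymes, 0, 0 and 1 were called higher, with medians of 0.17, 0.10 and 0.21. DESeq2 and limma voom called 0 at 24 and 36 hpf, where 1 and 3 genes had an unadjusted p under 0.05. The called gene was rrp8, which methylates a base of the large-subunit rRNA, at 15.5 ± 3.41 CPM in mutants and 8.13 ± 2.82 CPM in wild types at 48 hpf (SD), a log2 difference of 0.97 ± 0.22 (edgeR adjusted p = 0.00539). With the age score in the fit 0 of the 11 were called at 48 hpf. Ftsj3, a factor of pre-rRNA processing, had 0.39 ± 0.16 and bud23, which methylates small-subunit rRNA, had 0.33 ± 0.17 at 48 hpf, and neither passed (edgeR adjusted p = 0.299 and 0.483).

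Of 14 other nucleolar genes tested (of 15 listed), 0, 2 and 6 were called higher at 24, 36 and 48 hpf, with medians of 0.30, 0.34 and 0.40. At 24 hpf DESeq2 and limma voom also called 0, and 6 genes had an unadjusted p under 0.05. The 2 at 36 hpf became 3 by DESeq2, limma voom or with only the libraries compared, 4 without the shallow libraries and 1 with the age score. The GTPase gene gnl3l had 34.7 ± 4.65 CPM in mutants and 22.5 ± 3.70 CPM in wild types at 48 hpf (SD), a log2 difference of 0.62 ± 0.13 (edgeR adjusted p = 0.00158). The helicase gene ddx18 differed by 0.57 ± 0.14 (edgeR adjusted p = 0.00731) and nop2 by 0.50 ± 0.13 (edgeR adjusted p = 0.0166). Nop2 is also an rRNA cytosine methyltransferase, but it was listed here and not with the modification enzymes. The other 3 called were gnl3, nifk and mybbp1a, with log2 differences of 0.43, 0.58 and 1.06. With the age score in the fit 1 of the 14 was called higher at 48 hpf, against 1.3% of all tested genes. Gnl3, nifk, mybbp1a and the relatives of npm1a were named after their values were seen. Npm1b differed by -0.01, -0.02 and -0.08 and npm3 by 0.08, -0.01 and 0.05 at the 3 ages, and neither passed at any.

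With age, 9 of 15 genes of the assembly list, 6 of 11 modification enzymes and 12 of 14 other nucleolar genes were called lower in wild types at 48 hpf than at 24 hpf, with medians of -0.77, -0.52 and -0.70. Of all tested genes 13.5% were called lower in that comparison. No gene of the 3 lists was called lower in mutants at any age.

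**Figure D5:**
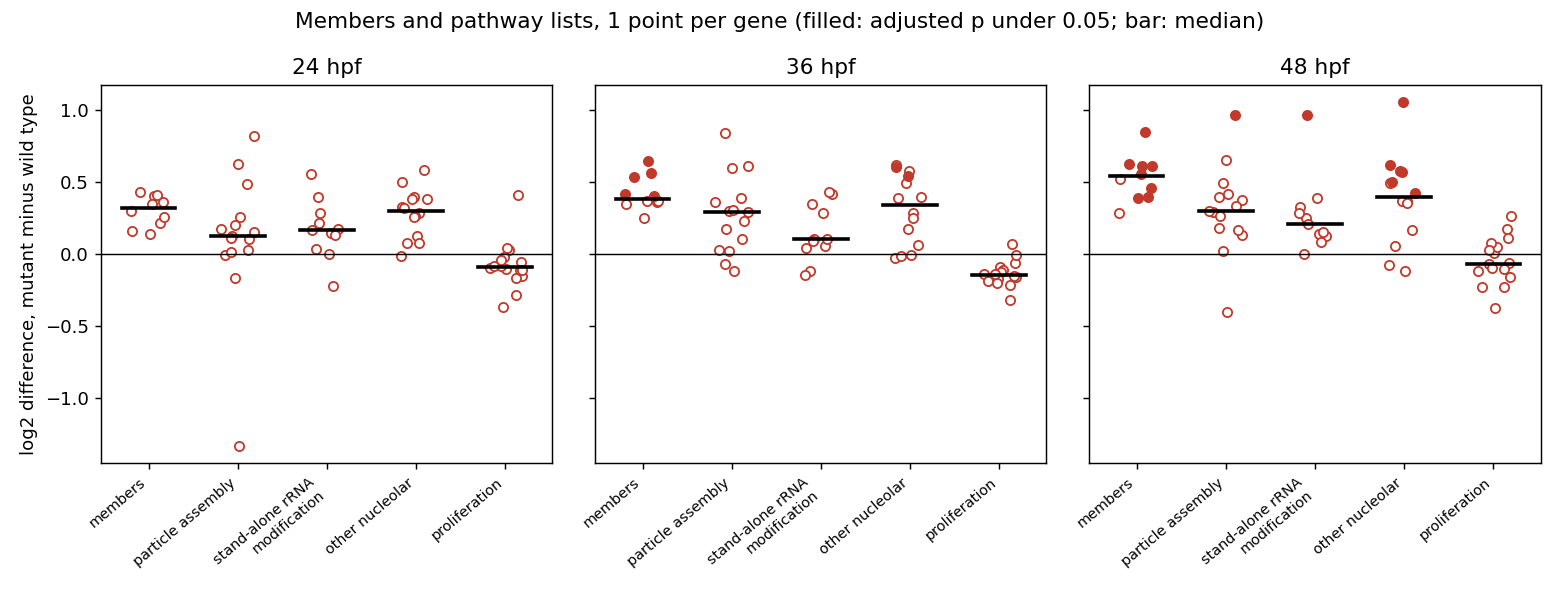
Log2 difference of mutants minus wild types for each gene of 5 lists at 24, 36 and 48 hpf, with filled points for an edgeR adjusted p under 0.05 and a bar at each list's median. At 48 hpf the 10 members have a median of 0.54, the assembly, modification and other nucleolar lists have 0.30, 0.21 and 0.40, and the proliferation markers have -0.07.

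Markers of dividing cells were read beside these values. Of 16 proliferation genes (mcm2 to mcm7, pcna, mki67 and others), 0 were called between genotypes at any age by edgeR, DESeq2 or limma voom. Their medians were -0.09, -0.15 and -0.07, and 3, 2 and 4 had an unadjusted p under 0.05. With the age score in the fit 0, 1 and 1 were called lower, against 0.0122%, 0.122% and 0.761% of all tested genes. Their summed level ranged over 1408 to 1817 CPM in mutants and 1552 to 1928 CPM in wild types at 48 hpf. In wild types 14 of the 16 were called lower at 48 hpf than at 24 hpf, against 13.5% of all tested genes. Between 48 hpf mutants and 36 hpf wild types 15 of the 16 were called lower, with a median of -0.81, against 6.11% of all tested genes.

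Markers of other tissues were read in the same way. Over all tested genes at 48 hpf, edgeR called 0.712% lower in mutants, DESeq2 1.05% and limma voom 1.34%. With the age score edgeR called 0.761% lower, and with only the libraries compared 1.44%. By an unadjusted p under 0.05 the share in either direction was 11.3%. At 48 hpf 0 of 7 neural progenitor genes, 0 of 6 neuronal genes and 0 of 6 skeletal muscle genes were called by edgeR, with medians of 0.10, -0.16 and -0.25, and 1 gene of each list had an unadjusted p under 0.05. DESeq2 called 0 in each, and limma voom called 1 muscle gene lower. With only the libraries compared, edgeR called 3 of the 6 muscle genes lower, against 1.44% of all tested genes. Without the shallow libraries edgeR called 1 of the 7 neural progenitor genes higher. The summed muscle level ranged over 23328 to 32258 CPM in mutants and 27243 to 35753 CPM in wild types at 48 hpf. Of 4 yolk and liver genes tested 0 were called at 48 hpf by edgeR, with a median of -0.24, but all 4 had an unadjusted p under 0.05. DESeq2 and limma voom called 1 of these 4 lower, as did edgeR with the age score, and edgeR on only the libraries compared called 2 lower. Their summed level ranged over 9336 to 11310.2 CPM in mutants and 10648 to 12708 CPM in wild types.

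Of 5 erythroid genes alas2, which starts haem synthesis in red cells, was called lower at 36 and 48 hpf (log2 difference -0.82 and -0.71). The erythroid medians were -0.41 and 0.10 at these ages, and at 48 hpf 3 of the 5 genes lay above 0. At 36 hpf DESeq2 and limma voom each called 2 of the 5 lower and 0 higher, against 0.183% and 0.176% of all tested genes lower. With only the libraries compared, edgeR called 3 lower there, against 0.225%. The main edgeR fit called 0.0913% of all tested genes lower at 36 hpf and 0.712% at 48 hpf. Of 6 lens genes the crystallin gene cryba2a was called lower at 48 hpf (-0.77), while the 6 ran from -0.91 to 0.99 with a median of -0.13 and 3 lay above 0. For the lens genes at 48 hpf DESeq2 called 1 lower and limma voom 2 lower, against 1.05% and 1.34% of all tested genes. With only the libraries compared, edgeR called 3 lower and 1 higher, against 1.44% and 2.4%. With the age score edgeR called 0 of the lens genes. Alas2 and cryba2a were named after their values were seen. Of 5 epidermal, 3 hatching gland and 4 notochord genes 0 were called at 48 hpf by edgeR, DESeq2 or limma voom, with medians of -0.06, 0.24 and 0.35, and 1, 0 and 2 had an unadjusted p under 0.05. The part of any change in tissue makeup in the genotype differences above was not tested.

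The 10 genes varied together, but no value for pairs of other genes was set beside them. Over the 48 libraries the Pearson correlation of log2 CPM ran from 0.741 to 0.952 over the 45 pairs (median 0.860). These points share library, age and genotype, and after removal of the group means the 45 values ran from -0.03 to 0.70 (median 0.434). Set against the mean of the other 9, fbl was the closest to the rest (0.966 over libraries and 0.780 within groups) and nhp2 the least close (0.863 and 0.284). The 6 pairs within the H/ACA particle had a within-group median of 0.330, and the 3 within the C/D particle 0.382. The 3 pairs among npm1a, ncl and nolc1 had 0.564, and the 33 pairs between these classes 0.434.

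Among 7933 other genes with a mean of at least 10 CPM, those most like the mean of the 10 over the 48 libraries were bxdc2 (0.907), snu13b (0.899), cnbpa (0.897), rpl7l1 (0.895) and nop2 (0.888). Within groups their values lay between 0.405 and 0.622. Since these 5 were chosen over the same libraries, genotype differences included, their calls describe them and are no separate test. At 48 hpf bxdc2, rpl7l1 and nop2 were called higher in mutants, with log2 differences of 0.53, 0.48 and 0.50 (edgeR adjusted p = 0.0134, 0.00488 and 0.0166). Cnbpa was called at 36 hpf (0.32, edgeR adjusted p = 0.0297), and snu13b was not called at any age.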

How the data were processed

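Messenger RNA of 48 single embryos was measured by Lasy-Seq, and samples were grouped by the genotype in their labels and the age in their titles. The deposited table holds the authors' expected counts per gene symbol, not normalised. Per the submitters' processing notes, Salmon, BWA 0.7.17-r1188, fastp 0.21.0 and the build GRCz11 were used, and the sources used here give neither the annotation nor the handling of strand. The authors' deposited sample sheet also lists total counts, which equal the table's column totals in all 48 libraries.

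Expected counts were rounded to whole numbers. Of 31658 entries, 16431 with 99.8% of counts passed edgeR's filterByExpr (minimum count 10). With edgeR 4.0.16 in R 4.3.3, TMM factors and robust quasi-likelihood fits with 1 mean per group were obtained over all 48 libraries, so that each gene has 1 spread shared by the 6 groups. P-values were adjusted over all tested genes by the Benjamini-Hochberg method, with a threshold of 0.05. SEs derive from the F statistic. Alternatives were DESeq2 1.42.0, limma 3.58.1 (voom), DESeq2's size factors, no filter, no shallow libraries, a replicate block, an age score as covariate, only the libraries compared, and each library left out. Only the main edgeR fit, and none of the alternatives, was tried on simulated data, with differences planted in the 48 hpf mutants alone. Correlations used log2 CPM with a prior count of 2.

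The 10 genes and all lists were chosen with earlier results of these data known. Beyond the 10, the rule named noc2l, the 3 genes of smallest p at 48 hpf in each pathway list, and the 5 genes most like the mean of the 10. Chromosomes came from a RefSeq table of GRCz12tu by symbol, which placed 13752 of the tested genes (83.7%). Reads shared between near-identical genes can be divided by such counting, so npm1a and npm1b may be affected. Precision follows the total counts, which ran from 797752 to 11016313.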

Additional observations from a re-analysis of the deposited data

Results flagged for a closer look

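Of 60 sets of values (10 genes in 6 groups), 4 held an embryo set apart from its group by Dixon's criterion, and chance alone gives about 1 in 20. Nop56 was lowest in wild-type embryo 9 at 48 hpf, one of the 3 shallowest libraries, at 35.8 CPM, and the next wild type had 58.5 CPM. Npm1a was highest in wild-type embryo 4 at 48 hpf, at 196.7 CPM, and the next had 179 CPM. Ncl was highest in wild-type embryo 8 at 36 hpf, at 395 CPM, and the next had 309 CPM. Nolc1 was highest in mutant embryo 3 at 24 hpf, at 104 CPM, and the next had 78.6 CPM.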

How the results depend on the processing

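The count of genes called at 48 hpf was 8 of 10 and became 4 with the age score as covariate. Of all tested genes 1.49% and 1.3% were called higher in these 2 fits. From 36 to 48 hpf in mutants 2 were called, which became 1 with DESeq2's size factors, the replicate block, no filter or DESeq2. The count was 4 with limma voom and 5 with only the libraries compared. Of all tested genes 5.26% were called lower there in the main fit and 5.16% by DESeq2. Limma voom called 6.43% lower, and edgeR on only the libraries compared 6.52%. Shares for the other settings are not given here. For 48 hpf mutants against 36 hpf wild types the count of 2 became 1 with no filter. Leaving out 1 library gave 0 to 1 calls in 24 hpf embryos, 4 to 6 in 36 hpf embryos and 8 to 9 in 48 hpf embryos, from 1 to 3 for 36 to 48 hpf in mutants, and from 1 to 3 for 48 hpf mutants against 36 hpf wild types. Values near 0 changed sign: nolc1 from 36 to 48 hpf in mutants (-0.01) was 0.0178 with DESeq2's size factors, 0.0209 with the replicate block, 0.0185 with DESeq2 and 0.00388 with limma voom, and -0.0463 to 0.0338 with 1 library left out. Npm1a in that comparison was -0.0155 to 0.0951 with 1 left out, ncl for 48 hpf mutants against 36 hpf wild types -0.018 to 0.0753, and the 48 against 24 hpf genotype difference -0.0609 to 0.0531 for nhp2 (0.0131 with limma voom) and -0.0291 to 0.180 for nop56. The cause was not tested. Same-numbered embryos did not deviate together (21 pairs, correlation -0.05 to 0.07), and 4 of the 21 correlated best with their own number. Such correlations cannot exclude that the numbers pair samples, and the main fit read the numbers as names only. The replicate block kept 0, 5 and 8 calls between genotypes. With DESeq2's size factors the largest absolute median log2 difference over all genes was 0.04. Over all tested genes, the 20 calls at 24 hpf became 46 by DESeq2, 8 by limma voom, 9 with only the libraries compared and 13 without the shallow libraries, and the 362 at 48 hpf became 632 with only the libraries compared. Calls over all tested genes for a change of the genotype difference between 24 and 48 hpf, none among the members, numbered 10. They became 28 with the age score, 24 without the shallow libraries, 6 by limma voom and 43 by DESeq2. The 9 such calls between 36 and 48 hpf became 5 by limma voom and 14 by DESeq2.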
